A study of Mus musculus with 20 samples.

Results

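DNA methylation of colonic epithelial cells was compared between specific-pathogen-free (SPF) and germ-free (GF) mice at weaning age, 3 weeks after birth, in 8 of the 20 samples of the series. The 4 SPF samples were 2 of differentiated and 2 of stem cells, and the 4 GF samples were likewise 2 of differentiated and 2 of stem cells. All animals were C57BL/6J mice that had the genotype Lgr5EGFP-IRES-CreERT2, in which green fluorescent protein and an inducible Cre are driven by the stem cell gene Lgr5, so SPF and GF groups share it. In each group replicate 1 was male and replicate 2 female. The other 12 samples came from mice at 15 weeks. They are used here to scale the early differences and to follow regions to that age. They also enter the estimate of the spread behind the tests of single regions at 3 weeks. The members are all 1195 of the 1195 regions in the deposited table, compared within differentiated cells, within stem cells and with both cell types pooled.

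SPF mice carry a normal gut microbiota free of listed pathogens, and GF mice are raised without microbes. Weaning replaces milk with solid food, and the gut microbiota of conventional mice diversifies around that time. Stem cells at the base of the colonic crypt divide and supply the differentiated absorptive and secretory cells above them. Methylation of cytosine in CpG dinucleotides is copied at cell division, and low methylation usually marks active promoters and enhancers. The methylation level of a region is the fraction of its CpG signal read as methylated, from 0 to 1.

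The regions were not a random part of the genome. Every one carried a negative deposited methylation difference of at least 0.1 in size, and which groups it compares is not named in the file. Across the 1195 regions, Pearson's r of that difference was 0.888 with the SPF minus GF difference of stem cells at 15 weeks and 0.0941 with the pooled one at 3 weeks (a description, since the regions share samples). The list thus follows the later difference, and what it shows at 3 weeks does not carry over to the rest of the genome. Each fraction comes without read counts, so its depth is unknown and no interval from counting error can be given. The 2 SPF identifiers at 3 weeks begin with LD and the 2 GF identifiers with GFp, and each identifier names 1 differentiated and 1 stem sample. Identifier style and microbial status cannot be told apart, and whether both samples of an identifier came from 1 animal is not stated. The spread between replicates includes any sex difference, and nothing shows that replicates were processed on separate days. Of the cell-type markers checked, 4 of 12 for stem cells had a region (Axin2, Prom1, Cd44 and Cdca7), against 1 of 9 for differentiated epithelium (Ceacam1), 2 of 8 for stroma and endothelium (Pecam1 and Acta2) and 0 of 13 for immune cells. The mean levels of differentiated and stem samples at these markers lay close, at 0.868 and 0.842 for Axin2 and at 0.521 and 0.516 for Ceacam1. At Prom1 they were 0.685 in differentiated and 0.582 in stem samples. The table thus gives little ground for checking the labelled cell types, and the part of other cells in the differences was not tested.

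Of the 1195 regions, 26 overlapped the promoter window of a RefSeq gene (250 bases before to 50 after its start). In 4 regions the window lay wholly inside, and 3 of these are shown. The region not shown, in Tmem252, had the lowest 3-week level of the 4, with means of 0.306 in SPF and 0.318 in GF samples. The sequences are RefSeq promoters of GRCm38.p6, the mm10 assembly, with each CG in capitals.
Apobec3, chr15:79894773-79895072, plus strand: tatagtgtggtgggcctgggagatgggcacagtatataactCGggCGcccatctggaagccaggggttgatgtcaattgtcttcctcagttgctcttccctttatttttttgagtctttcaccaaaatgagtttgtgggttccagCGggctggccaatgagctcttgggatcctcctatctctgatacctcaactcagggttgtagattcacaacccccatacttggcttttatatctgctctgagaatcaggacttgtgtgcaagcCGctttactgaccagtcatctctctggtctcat
Ifitm3, chr7:141010695-141010994, minus strand: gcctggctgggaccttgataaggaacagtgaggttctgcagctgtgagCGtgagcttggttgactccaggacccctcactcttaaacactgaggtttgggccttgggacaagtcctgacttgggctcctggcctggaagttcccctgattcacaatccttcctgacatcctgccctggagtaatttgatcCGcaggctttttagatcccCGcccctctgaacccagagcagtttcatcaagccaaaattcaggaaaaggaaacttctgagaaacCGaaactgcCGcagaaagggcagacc
Ptprj, chr2:90479125-90479424, minus strand: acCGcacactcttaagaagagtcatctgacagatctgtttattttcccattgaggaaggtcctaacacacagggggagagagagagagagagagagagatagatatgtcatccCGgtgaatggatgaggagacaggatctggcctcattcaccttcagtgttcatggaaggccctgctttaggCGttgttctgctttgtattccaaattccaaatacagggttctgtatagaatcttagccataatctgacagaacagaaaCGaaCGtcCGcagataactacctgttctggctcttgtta
The motif searched was CG, which reads the same on both strands. It occurs 4 times in the Apobec3 window, 5 times in that of Ifitm3 and 6 times in that of Ptprj, and the median over the 32851 promoters of the reference is 7. Promoters with at most that many CG made up 38.0%, 43.6% and 47.9% of the reference for Apobec3, Ifitm3 and Ptprj, in that order.

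At Apobec3, which encodes an antiviral cytidine deaminase, the region was highly methylated in both groups at 3 weeks. Its fraction was 0.865 and 0.895 in differentiated and 0.885 and 0.862 in stem cells of SPF mice, against 0.880 and 0.839 in differentiated and 0.962 and 0.922 in stem cells of GF mice. The groups overlapped. At Ifitm3, an interferon-induced membrane protein that blocks virus entry, the mean was 0.380 ± 0.0190 in SPF and 0.392 ± 0.114 in GF samples (SD, n = 4 each). At the Ptprj window, in a gene for a receptor tyrosine phosphatase, it was 0.573 ± 0.0717 in SPF and 0.629 ± 0.0476 in GF samples (SD, n = 4 each). None of these 3 regions passed the test, with limma adjusted p of 0.525 for Ptprj, 0.865 for Apobec3 and 0.934 for Ifitm3. By 15 weeks the SPF minus GF difference in differentiated cells was -0.394 at Apobec3, -0.221 at Ifitm3 and -0.228 at this Ptprj region, each larger in size than at 3 weeks.

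At weaning the regions were slightly less methylated in SPF than in GF cells, in both cell types. In differentiated cells the mean over the 1195 regions was 0.573 and 0.582 in the SPF samples, against 0.610 and 0.605 in the GF samples. In stem cells it was 0.574 and 0.569 in the SPF samples, against 0.612 and 0.603 in the GF samples. Every SPF sample lay below every GF sample, and the gap between the closest ones was wider than the gap between replicates of any group. The difference was -0.0298 in differentiated cells (0.578 ± 0.0062 in SPF and 0.608 ± 0.00396 in GF, SD, n = 2 each) and -0.0358 in stem cells (0.572 ± 0.00375 in SPF and 0.607 ± 0.00629 in GF, SD, n = 2 each). With both cell types of an identifier averaged, it was -0.0328. Exact two-sided permutation tests gave p = 0.333 for each of these 3 comparisons, also after Benjamini-Hochberg adjustment over the 3, and that is the smallest p that 2 against 2 allows. Over the 8 samples as if independent, the exact permutation p was 0.0286, the smallest that 4 against 4 allows, but the 8 samples come from 4 identifiers.

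**Figure D1:**
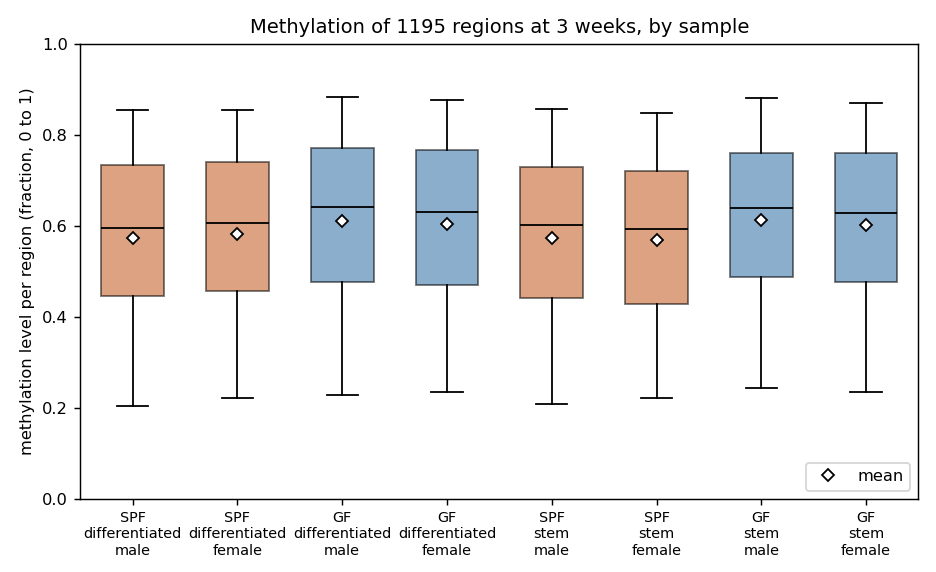
Methylation level (fraction, 0 to 1) of the 1195 regions in each of the 8 samples at 3 weeks, with boxes from the first to the third quartile, a line at the median, whiskers from the 5th to the 95th percentile and a diamond at the mean. The 4 SPF means lie between 0.569 and 0.582, and all 4 GF means between 0.603 and 0.612.

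The early shift was small beside the later one. At 15 weeks the SPF minus GF difference of the mean was -0.222 in differentiated cells, 0.345 ± 0.0106 in SPF (n = 2) and 0.567 ± 0.00456 in GF (SD, n = 4). In stem cells at 15 weeks it was -0.242, with 0.354 ± 0.00839 in SPF (n = 2) and 0.596 ± 0.0115 in GF (SD, n = 4). The 3-week difference was thus 13.4% of the 15-week one in differentiated cells and 14.8% in stem cells. At 3 weeks, 817 regions (68.4%) had a lower mean in SPF in differentiated cells and 848 (71.0%) in stem cells. Pooled, 902 regions (75.5%) were lower in SPF, with a median difference of -0.0312 and the middle 90% of regions between -0.118 and 0.0446. A pooled difference of at least 0.1 in size was found in 113 regions lower and 9 regions higher in SPF, and of at least 0.2 in 7 lower and 0 higher.

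The shift was spread over regions of all levels. Over the regions, levels in SPF and GF samples followed each other closely (Pearson's r = 0.963 across 1195 regions, a description, since regions share the samples). Regions above 0.8 numbered 131 and 145 in differentiated and 145 and 146 in stem cells of SPF mice, against 231 and 221 in differentiated and 216 and 198 in stem cells of GF mice. Regions below 0.2 numbered 58 and 49 in differentiated and 53 and 46 in stem cells of SPF mice, against 38 and 39 in differentiated and 45 and 44 in stem cells of GF mice. The highly methylated class was smaller in every SPF sample than in every GF sample, and the low class was larger in every SPF sample, though the smallest SPF count of 46 and the largest GF count of 45 were next to each other. Grouped by level over the 8 samples, the difference was -0.0267 for 40 regions under 0.2, -0.0387 for 162 regions from 0.2 to 0.4 and -0.0323 for 366 regions from 0.4 to 0.6. For the 478 regions from 0.6 to 0.8 it was -0.0345, and for the 149 above 0.8 it was -0.0240. In each of these 5 classes the 4 SPF means lay below the 4 GF means.

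The same sign was seen within each sex. In male samples the mean SPF minus GF difference was -0.0370 in differentiated cells (795 of 1195 regions lower in SPF) and -0.0376 in stem cells (778 regions). In female samples it was -0.0226 in differentiated cells (711 regions) and -0.0340 in stem cells (759 regions). Of the 1195 regions, 222 were lower in SPF in all 4 sex-matched pairs and 30 in none of them. Individual regions varied far more than the mean: the mean absolute difference between the replicates of a group was 0.0611 to 0.0787.

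No region passed the test in the pooled comparison or in stem cells, and 1 did in differentiated cells. With limma and Benjamini-Hochberg adjustment at 0.05, 0 regions (0%) were called in stem cells, where 112 were lower (9.37%) and 12 higher (1.0%) in SPF at an unadjusted p under 0.05. In differentiated cells 1 region was called lower (0.0837%) and 0 higher, with 91 lower (7.62%) and 13 higher (1.09%) at the unadjusted threshold. In the pooled comparison 0 were called, with 146 lower (12.2%) and 12 higher (1.0%) at the unadjusted threshold. The smallest adjusted p was 0.0938 pooled and 0.244 in stem cells. The median standard error of a region's difference was 0.0582 in each cell type and 0.0416 pooled. An early difference of typical size, about 0.03, was therefore not detectable region by region with these samples. After each sample was centred on its own mean, the unadjusted pooled counts were 46 lower and 38 higher. Centring sets the mean difference to 0, so a near balance is built into these counts.

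The called region lies in the body of Tmsb10, which encodes thymosin beta 10, a small protein that binds actin monomers. It spans chr6:72957416-72957523 in mm10 with 10 CpGs. Its fraction was 0.174 and 0.049 in differentiated and 0.146 and 0.148 in stem cells of SPF mice, against 0.518 and 0.722 in differentiated and 0.161 and 0.180 in stem cells of GF mice. The 2 differentiated GF samples alone were high, and the other 6 samples lay under 0.2. The difference was -0.508 ± 0.0799 (SE) in differentiated cells (limma adjusted p = 0.00442) and -0.0231 in stem cells. Differentiated and stem differences were apart by -0.485, which did not pass the test of that difference (limma adjusted p = 0.254). At 15 weeks differentiated GF samples averaged 0.209 and SPF samples 0.055 there, and the change of the difference with age was 0.354 (limma adjusted p = 0.011). The call was lost without SPF differentiated replicate 2 (limma adjusted p = 0.252) or GF differentiated replicate 2 (0.123), and on the logit scale (0.0776).

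**Figure D2:**
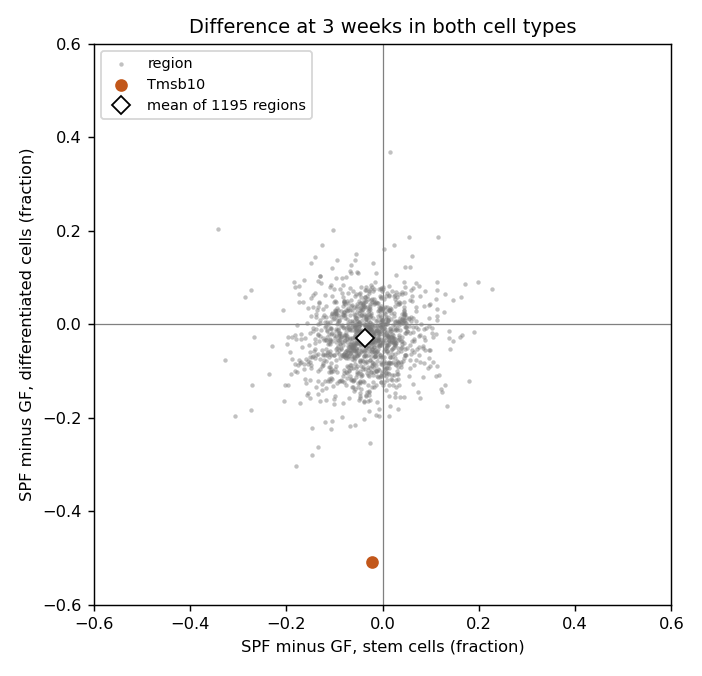
SPF minus GF difference in methylation fraction at 3 weeks in stem cells (x axis) and differentiated cells (y axis), with 1 point per region, the Tmsb10 region in orange and the mean of all 1195 regions as a diamond. The mean lies below 0 on both axes, at -0.0358 for stem and -0.0298 for differentiated cells, and Tmsb10 stands apart at -0.508 in differentiated cells.

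Across regions, the early differences of the cell types were only weakly correlated. Pearson's r between the differentiated and the stem difference was 0.0961 across the 1195 regions at 3 weeks, and 0.729 at 15 weeks. Between the male and the female difference at 3 weeks it was 0.0631. These are descriptions over regions of the same samples, in groups of 2 at 3 weeks and of 2 and 4 at 15 weeks. At 3 weeks the median standard error of a region's difference, 0.0582 in each cell type, exceeded the size of the mean differences (-0.0298 and -0.0358). Such noise lowers r. The low values, also beside 15 weeks where differences were larger, thus cannot show whether early differences were shared. The test of the differentiated minus stem difference called 0 regions, with 24 more negative (2.01%) and 39 less negative (3.26%) in differentiated cells at the unadjusted threshold.

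The regions that differed most between the cell types are named for that contrast, in which none was called. The largest was a region of 19 CpGs near the starts of Peg10 and Sgce (chr6:4747474-4747741), a neighbouring pair of genes expressed from the paternal copy. Its fraction was 0.493 and 0.568 in differentiated and 0.288 and 0.341 in stem cells of SPF mice, against 0.315 and 0.337 in differentiated and 0.712 and 0.603 in stem cells of GF mice. SPF was thus above GF in differentiated cells by 0.204 and below it in stem cells by 0.343, and the difference between the cell types was 0.547 ± 0.143 (SE, limma adjusted p = 0.366). At a Pla2g5 region (chr4:138826773-138826996), in a gene for a secreted phospholipase, it was 0.343 ± 0.0909 (SE, limma adjusted p = 0.366). There 1 stem sample of GF mice stood at 0.923, the highest of the 8. At Rab3c, a vesicle GTPase, 1 differentiated SPF sample stood at 0.982 and the other 7 samples at 0.356 to 0.604. At a region without a gene (chr17:82827729-82828081) the stem samples were at 0.549 and 0.519 in SPF, against 0.812 and 0.805 in GF mice.

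In 69 regions (5.77%) all 4 SPF samples lay below all 4 GF samples, and in 8 regions (0.669%) all 4 lay above. After each sample was centred on its mean over the regions, which by construction balances the directions, the counts were 28 and 27. The 69 regions were spread over 19 chromosomes and had a median difference of -0.103. Of these, 55.1% overlapped a candidate cis-regulatory element (cCRE), against 49.2% of all regions. The cCREs counted were promoter-like or enhancer-like elements, CTCF-only elements or elements with DNase and H3K4me3 signal. A gene or its start was overlapped by 66.7% of the 69, against 63.2% of all regions. Their median level was 0.576, against 0.613 over all regions. At 15 weeks the median SPF minus GF difference of the 69 in differentiated cells was -0.249, against -0.213 over all regions.

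The 12 of these regions with the smallest pooled p are named for that p, so their values are a description, and none was called (limma adjusted p from 0.0938 to 0.171). Pef1, a calcium-binding EF-hand protein, held the smallest (chr4:130126965-130127335). Its fraction was 0.430 and 0.469 in differentiated and 0.444 and 0.378 in stem cells of SPF mice, against 0.823 and 0.636 in differentiated and 0.577 and 0.538 in stem cells of GF mice. The pooled difference was -0.213 ± 0.0438 (SE, limma adjusted p = 0.0938), and the GF samples were the more spread. Dcun1d4, which takes part in neddylation of cullins, had the largest difference of means of the 12 (chr5:73557004-73557349, a distal enhancer-like element). There SPF samples were at 0.405 and 0.439 in differentiated and 0.285 and 0.543 in stem cells, against 0.698 and 0.751 in differentiated and 0.602 and 0.586 in stem cells of GF mice. The pooled difference was -0.242 ± 0.0552 (SE, limma adjusted p = 0.105).

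Psap encodes prosaposin, the precursor of activators of lysosomal sphingolipid breakdown. At its region of 15 CpGs (chr10:60281821-60282561) SPF samples ran from 0.492 to 0.574 and GF samples from 0.598 to 0.695, with a pooled difference of -0.130 ± 0.0304 (SE, limma adjusted p = 0.105). Elovl5, a fatty acid elongase, had 23 CpGs in its region (chr9:77937378-77938550), with SPF samples from 0.515 to 0.601 and GF samples from 0.643 to 0.716. The region named in the cadherin gene Fat1 started low (chr8:44957237-44957408), at 0.117 to 0.163 in SPF and 0.205 to 0.423 in GF samples. At 15 weeks this region averaged 0.162 in differentiated and 0.208 in stem cells of SPF mice, close to their 3-week levels, against 0.672 in differentiated and 0.613 in stem cells of GF mice.

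Prdm1 encodes Blimp-1, a transcriptional repressor known from lymphocytes and from the epithelium of the newborn mouse small intestine, where it holds back the adult programme until weaning. Its region (chr10:44449579-44450195) is an enhancer-like element in the gene. The fraction was 0.487 and 0.480 in differentiated and 0.502 and 0.345 in stem cells of SPF mice, against 0.567 and 0.587 in differentiated and 0.556 and 0.588 in stem cells of GF mice. The groups did not overlap, the pooled difference was -0.121 ± 0.0346 (SE, limma adjusted p = 0.166), and the stem SPF replicate 2 was the lowest of the 8. At 15 weeks it averaged 0.358 in differentiated and 0.440 in stem cells of SPF mice, against 0.821 in differentiated and 0.778 in stem cells of GF mice. Prdm1 is also on the immune cell marker list, of which it was the only member with a region, so it gives no check on immune cells.

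The other 6 named regions with lower SPF samples held Lrrc1, a scaffold protein of cell polarity, Lypd6, a membrane-anchored Ly6-family protein, and Atxn1, a binding partner of transcriptional repressors. A region in Rmi1, part of a complex that resolves DNA crossovers, also lay near the start of Hnrnpk, an RNA-binding protein gene. Their pooled differences were -0.140 at Lrrc1, -0.155 at Lypd6, -0.136 at Atxn1 and -0.164 at Rmi1. In Atxn1 the SPF maximum of 0.577 and the GF minimum of 0.616 were the nearest values. The remaining regions had no gene: 1 on chromosome 9 (chr9:67786353-67787160, -0.169) and 1 on chromosome 5 (chr5:118391380-118391972, -0.118). Of the 12 regions, 4 had a difference that changed with age in differentiated cells and 2 in stem cells by limma. Among all regions, 47.4% and 54.5% grew more negative, in the same order. The 12 were picked for low SPF values at weaning, and those values enter the change. That choice works against a more negative change, so these counts cannot show whether the 12 changed less with age than other regions.

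**Figure D3:**
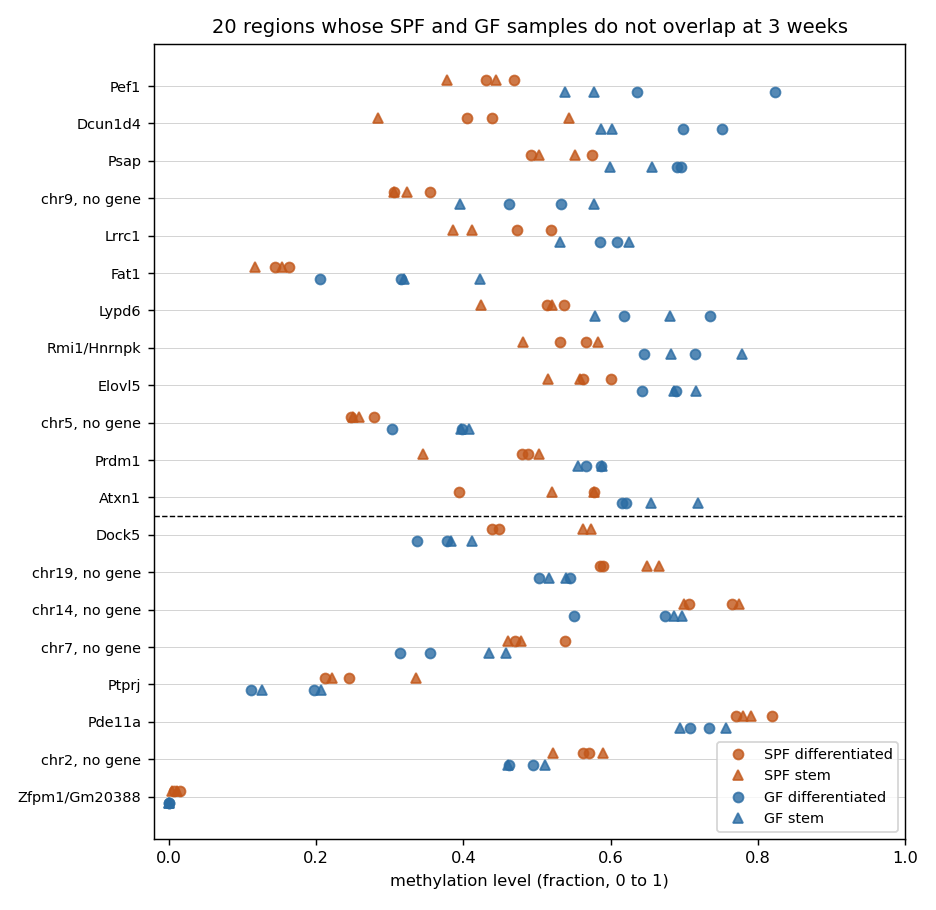
Methylation level (fraction, 0 to 1) of 20 regions in each of the 8 samples at 3 weeks, SPF in orange above GF in blue, circles for differentiated and triangles for stem cells. Above the dashed line all 4 SPF samples lie below the GF samples (12 of 69 such regions), and below it they lie above (8 of 8), with the largest difference of means of the upper block at Dcun1d4 (-0.242) and of the lower block at Dock5 (0.128).

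The 8 regions in which all 4 SPF samples lay above the GF samples included Dock5, an activator of Rac GTPases (chr14:67930379-67930912). Its fraction was 0.439 and 0.449 in differentiated and 0.563 and 0.573 in stem cells of SPF mice, against 0.337 and 0.378 in differentiated and 0.411 and 0.383 in stem cells of GF mice. The pooled difference was 0.128 ± 0.0387 (SE, limma adjusted p = 0.171). Ptprj had a region in an enhancer-like element (chr2:90487937-90488483) with SPF samples from 0.212 to 0.336 and GF samples from 0.111 to 0.207. Pde11a, a cyclic nucleotide phosphodiesterase, was at 0.770 to 0.819 in SPF and 0.695 to 0.756 in GF samples (chr2:76335584-76336219). At Zfpm1, a cofactor of GATA factors, the region was nearly unmethylated: SPF samples ran from 0.004 to 0.015 and all 4 GF samples are listed at 0. The remaining 4 had no gene and pooled differences from 0.079 to 0.097. By 15 weeks each of the 8 had a lower mean in SPF than in GF cells of both types, opposite to 3 weeks. The change of the difference with age passed the test in 6 of the 8 in differentiated cells and 7 of the 8 in stem cells, against 47.4% and 54.5% of all regions. The table lists regions with a negative difference and these 8 were picked for a positive one at 3 weeks, so both choices favour that change.

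The early difference was somewhat larger where the later one was larger. The regions were ranked by the SPF minus GF difference in differentiated cells at 15 weeks, measured in other samples, and cut into 4 bands of 298 or 299 regions. In the band with the most negative later difference (299 regions, -0.677 to -0.295), the 3-week mean was 0.663 and 0.662 in differentiated and 0.655 and 0.638 in stem cells of SPF mice, against 0.705 and 0.706 in differentiated and 0.708 and 0.686 in stem cells of GF mice. The 3-week difference there was -0.0465, and 84.9% of regions were lower in SPF. It was -0.0334 in the second band, -0.0322 in the third and -0.0191 in the last (299 regions), where 65.2% were lower in SPF. In that last band the highest SPF mean lay just above the lowest GF mean, both at 0.504, while in the other 3 bands all SPF means lay below all GF means. The mean of the first band minus that of the last was 0.160 ± 0.0143 in SPF and 0.187 ± 0.00226 in GF identifiers (SD, n = 2 each), and the difference of -0.0274 had an exact permutation p of 0.333, the smallest possible. Region by region the relation was weak, with Pearson's r of 0.183 between the pooled 3-week and the differentiated 15-week difference, and 0.142 with the stem one.

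**Figure D4:**
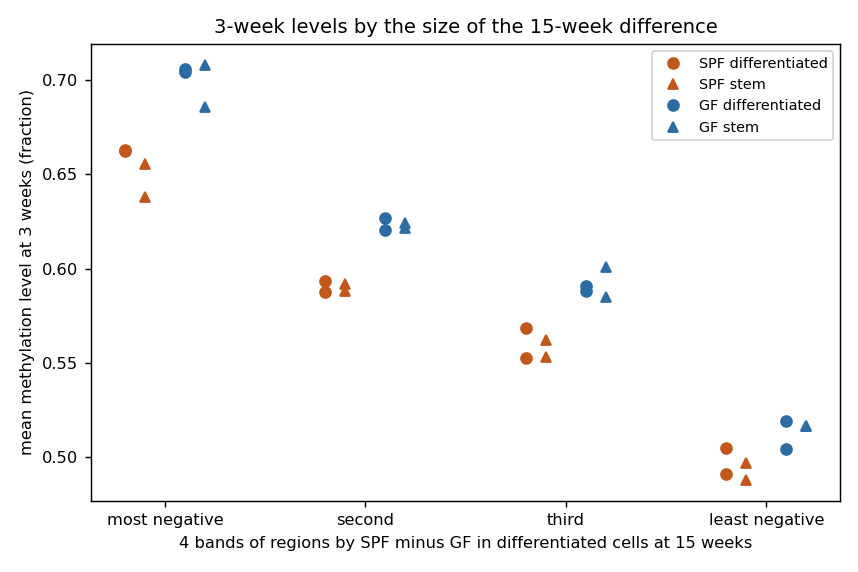
Mean methylation level at 3 weeks (fraction, the y axis not starting at 0) of each sample in the 4 bands of regions ordered by the SPF minus GF difference of differentiated cells at 15 weeks (x axis), SPF in orange left of GF in blue. The groups are farthest apart in the band with the most negative later difference (-0.0465) and overlap in the last one (-0.0191).

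The 10 regions with the largest deposited difference are named for it, and their 3-week differences were mixed in size. Ciita, the master activator of MHC class II genes (chr16:10490450-10491033, a promoter-proximal element with 17 CpGs), was at 0.776 and 0.761 in differentiated and 0.758 and 0.734 in stem cells of SPF mice, against 0.751 and 0.710 in differentiated and 0.773 and 0.801 in stem cells of GF mice. The pooled difference was -0.00155 ± 0.0293 (SE, limma adjusted p = 0.99). At 15 weeks Ciita averaged 0.104 in differentiated and 0.176 in stem cells of SPF mice, against 0.780 in differentiated and 0.832 in stem cells of GF mice. Hsd17b4, a peroxisomal enzyme of fatty acid oxidation (chr18:50175607-50175749), was at 0.867 to 0.917 in SPF and 0.848 to 0.969 in GF samples at 3 weeks. Its pooled difference was -0.000242, and its 15-week means were 0.267 in differentiated and 0.300 in stem cells of SPF mice, against 0.912 and 0.904 in differentiated and stem cells of GF mice.

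Irf1, an interferon-induced transcription factor, had a region of 27 CpGs (chr11:53773336-53774766) with SPF samples from 0.824 to 0.841 and GF samples from 0.851 to 0.909. The groups did not overlap, but the pooled difference was -0.0432 (limma adjusted p = 0.598). Tnip1, an inhibitor of NF-kB signalling, was at 0.750 to 0.853 in SPF and 0.743 to 0.867 in GF samples. Ifi47, an interferon-inducible GTPase, was at 0.568 to 0.735 in SPF and 0.675 to 0.787 in GF samples, with a pooled difference of -0.0754 (limma adjusted p = 0.525). The other 5 were Mybpc1, a myosin-binding protein, Lnx2, a ubiquitin ligase, Plcb4, a phospholipase C, Eml2, a microtubule-associated protein, and a region without a gene on chromosome 9. Their pooled differences ran from -0.105 at Plcb4 to -0.0141 at Eml2, and none passed the test.

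**Figure D5:**
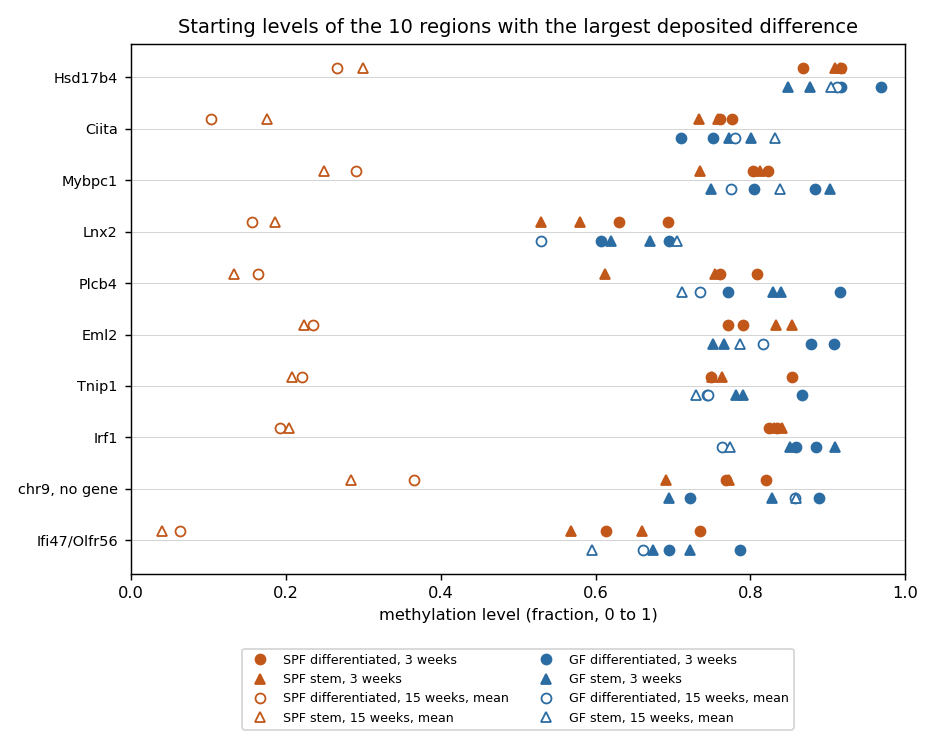
Methylation level (fraction, 0 to 1) of the 10 regions with the largest deposited difference, SPF in orange above GF in blue, filled symbols for each of the 8 samples at 3 weeks and open symbols for group means at 15 weeks, circles for differentiated and triangles for stem cells. At Ciita the 3-week samples of both groups lie between 0.710 and 0.801, while the SPF means at 15 weeks lie at 0.104 and 0.176.

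Gene groups of intestinal biology held few of the regions, and 0 regions of any of the 19 lists were called at 3 weeks. The counts of lower regions, here and in the lists below, are read against the 75.5% of all regions lower in SPF. Of the 14 regions of epithelial immune effectors and antigen presentation genes, 12 had a lower and 2 a higher mean in SPF, with a median difference of -0.0120, against -0.0312 over all regions. Their median level was 0.747 in SPF and 0.751 in GF samples, and their median difference at 15 weeks was -0.358 in differentiated cells. Il22ra1, a receptor chain for interleukin-22 (chr4:135737417-135739194), had the largest early difference of this list, at 0.479 to 0.568 in SPF and 0.567 to 0.646 in GF samples (-0.0915 ± 0.0340, SE, limma adjusted p = 0.230). The region named in H2-Ab1, an MHC class II chain, was lower at the start than the others named here (0.280 to 0.438 in SPF and 0.393 to 0.516 in GF samples). Its mean level over the 8 samples was 0.404 and its pooled difference -0.0730. Another H2-Ab1 region (chr17:34260886-34262047) had a level of 0.584 and a difference of -0.00766. B2m, the light chain of MHC class I, was at 0.707 to 0.826 in SPF and 0.764 to 0.858 in GF samples. Of 12 regions of the interferon response list, 8 were lower and 4 higher, with a median of -0.0115. Irf9, a partner of the STAT proteins, had a region (chr14:55604730-55605371) at 0.867 to 0.887 in SPF and 0.837 to 0.869 in GF samples, a pooled difference of 0.0212, and a second one with the opposite sign (-0.0228). Of 5 regions of microbial sensing and NF-kB genes, 4 were lower and 1 higher with a median of -0.0164. The higher one was Ifih1, a sensor of viral RNA (0.0692).

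Lists of cell identity and metabolism had few regions each. Of 6 intestinal stem cell regions 4 were lower and 2 higher (median -0.0177). Prom1 was at 0.647 and 0.692 in differentiated and 0.507 and 0.477 in stem cells of SPF mice, against 0.694 and 0.706 in differentiated and 0.730 and 0.615 in stem cells of GF mice, and its pooled difference was -0.106 (limma adjusted p = 0.427). Cdca7, which takes part in DNA methylation maintenance, had a pooled difference of 0.0458. Its SPF samples ran from 0.530 to 0.618 and its GF samples from 0.511 to 0.544, so the groups overlapped. Of 9 regions of lipid and bile acid metabolism genes 7 were lower and 2 higher (median -0.0215), and of 5 glycosylation regions 4 were lower and 1 higher (median -0.0217). St3gal3, a sialyltransferase, was at 0.258 to 0.444 in SPF and 0.406 to 0.500 in GF samples (-0.0977). Of 4 goblet cell and mucus regions 3 were lower and 1 higher (median -0.0318), with both signs in Muc13, a membrane mucin. Its named region (chr16:33796851-33797739) was at 0.579 to 0.718 in SPF and 0.652 to 0.771 in GF samples (-0.0770), and the other was the higher one of the list (0.0612).

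Of 5 regions of the fetal epithelium and Hippo list 2 were lower and 3 higher (median 0.00585). Tead1, the DNA-binding partner of YAP, was among the lower ones (-0.102, limma adjusted p = 0.230), and Igf2bp2, an RNA-binding protein, among the higher ones (0.0335). All 3 Wnt regions had a lower pooled mean in SPF (median -0.0299). Their median difference was -0.0745 in stem cells but 0.0290 in differentiated cells. Of 3 tight junction and adhesion regions 2 were lower and 1 higher (median -0.0357). With 75.5% of all regions lower, lists this short cannot be told apart from the rest by such counts. Both stromal and endothelial regions, in Pecam1 and Acta2, had a higher pooled mean in SPF, by 0.00502 and 0.0220. Pecam1 was lower in SPF in differentiated cells (-0.0663) and higher in stem cells (0.0763). The single Jag1 region of the Notch list had a difference of -0.00964, the Ceacam1 region of the absorptive list one of -0.0401 and the Smad1 region of the BMP list one of 0.0789. The lists of enteroendocrine cells, tuft cells, DNA methylation machinery and the circadian clock had 0 regions.

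Genes with several regions are read against the 75.5% of all regions that were lower in SPF and the median of -0.0312. In Aopep, an aminopeptidase gene, 8 of 8 regions had a lower mean in SPF (median -0.0273). Their mean was 0.444 and 0.460 in differentiated and 0.488 and 0.485 in stem cells of SPF mice, against 0.478 and 0.522 in differentiated and 0.521 and 0.497 in stem cells of GF mice. In Eps8, an actin regulator of microvilli, 4 of 5 were lower (median -0.0634) and SPF samples averaged 0.605 against 0.661 in GF samples. Lower regions made up 4 of 5 in Frmd4b, 3 of 4 in Pla2g5, 3 of 4 in Ptprj and 8 of 11 in Gm20388, a predicted gene whose regions also lie in Irf8, Zfpm1 and other genes. Among 78 pairs of regions at most 5000 bp apart, 51 were both lower, 8 both higher and 19 of opposite sign. With 75.5% of all regions lower, most pairs would be both lower even without any agreement between neighbours. A pair in Cped1 only 17 bp apart differed by -0.184 and -0.164, while a pair in Fat1 34 bp apart differed by -0.171 and 0.0331.

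The shift was compared between genomic settings. Distal enhancer-like elements (421 regions) had a mean difference of -0.0366, promoter-proximal ones (116) of -0.0340, regions without a cCRE (607) of -0.0303, and the 6 CTCF-only elements of -0.0541. The 24 promoter-like regions had a difference of -0.0324 and the 21 regions with DNase and H3K4me3 signal one of -0.0166, with 10 of 21 lower, and in both the SPF and GF sample means overlapped. Regions in gene bodies (720) differed by -0.0323 those outside genes and starts (440) by -0.0342, and those near a start (35) by -0.0252 with overlapping sample means. Regions of at least 15 CpGs (181) differed by -0.0387 and those with fewer (1014) by -0.0318. The 7 regions of the X chromosome differed by -0.0469, with overlapping samples, and the 1188 autosomal ones by -0.0327.

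The 5 regions with the lowest starting levels lay in Zfpm1, Osr2, Nr3c2, Tcf7l2 and Pde2a. Osr2, a zinc finger transcription factor, ran from 0.005 to 0.094 in SPF and 0.011 to 0.130 in GF samples. Nr3c2, the mineralocorticoid receptor, ran from 0.025 to 0.099 in SPF and 0.032 to 0.096 in GF samples, and a region of the Wnt effector Tcf7l2 from 0.031 to 0.075 in SPF and 0.019 to 0.151 in GF samples. The highest regions included Zfp1, a zinc finger protein gene, Dnah8, a dynein heavy chain gene, and a pair of regions without a gene on chromosome 6. Zfp1 ran from 0.879 to 0.962 in SPF and 0.899 to 0.948 in GF samples, and Dnah8 from 0.865 to 0.952 in SPF and 0.920 to 0.953 in GF samples. In the regions named here no difference passed the test.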

How the data were processed

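Whole-genome bisulfite libraries were made from genomic DNA with xGen Methyl-Seq chemistry after EZ DNA Methylation-Direct bisulfite conversion, per the labels' protocols. The submitters' processing notes name BSMAP 2.90 and mm10. Not given in the sources used here are trimming, coverage limits, the region caller and its test, and how the cell types were sorted or isolated. The authors deposited 1 methylation fraction (0 to 1) for each region in each sample. They also deposited for each region its number of CpGs (10 to 49), a difference and a p-value. Regions were 47 to 3428 bp long (median 525), and 10 of the 9560 fractions at 3 weeks were exactly 0. A fixed list of regions with a later difference leaves out regions that differed only at 3 weeks. Coordinates are printed as deposited, and whether they count from 0 or 1 is not stated.

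Groups, age and sex came from the labels. SPF was read as specific-pathogen-free and GF as germ-free. Limma 3.58.1 (R 4.3.3) modelled the fractions, using the 20 samples of all 8 groups for the spread, with Benjamini-Hochberg adjustment over 1195 regions and a threshold of 0.05. The pooled contrast and the differentiated minus stem contrast took samples of a shared identifier as a random block (correlation 0.0207). Exact two-sided permutation tests over samples were run on sample means (SciPy 1.17.1). The fit was tested on simulated data. P-values measure only the spread between these samples. Replicates of a group shared at most 1 identical value and none was counted as a duplicate. Alternatives were the logit scale, 3-week samples only, replicate blocks, at least 15 CpGs, autosomes only, centring, other uses of the identifier and leaving out each replicate. Depth is unknown.

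The members and the 19 gene lists were chosen with earlier results of these data known. Named regions were those past the threshold, the 12 and 8 with the smallest pooled p among regions whose groups did not overlap, the 10 with the largest deposited difference, the 5 highest and 5 lowest levels, the 5 largest differences between cell types, up to 4 per list, and genes with at least 4 regions. 1 region chosen by this rule is not reported here. Of 666 gene symbols in the table, 657 matched a RefSeq symbol or synonym (GRCm38.p6).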

Additional observations from a re-analysis of the deposited data

Results flagged for a closer look

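Among the 20 named regions whose SPF and GF samples did not overlap at 3 weeks, 19 differences are given here, for which the SPF minus GF difference at 15 weeks differed from that at 3 weeks by the limma test of the change (adjusted p under 0.05). Each is given as the 15-week minus the 3-week difference. Of the regions with all SPF samples below the GF samples at 3 weeks, the change was -0.2687 in differentiated cells at Lrrc1 and -0.4033 at Fat1. At Elovl5 it was -0.4103 in differentiated and -0.2913 in stem cells, and at Prdm1 -0.37 in differentiated and -0.1893 in stem cells. Of the regions with all SPF samples above, Dock5 changed by -0.1957 in differentiated and -0.4065 in stem cells. Ptprj changed by -0.2815 in differentiated and -0.351 in stem cells, and Pde11a by -0.2123 and -0.2351 in the same order. Among the regions without a gene, the change was -0.166 in differentiated and -0.3477 in stem cells on chromosome 19, and -0.335 and -0.2497 on chromosome 14. On chromosome 7 it was -0.3649 in differentiated and -0.2367 in stem cells, and on chromosome 2 it was -0.2303 in stem cells. Such changes are common in this table: 47.4% of all regions grew more negative in differentiated and 54.5% in stem cells. The named regions were picked by their 3-week values, which enter the change. That choice favours a more negative change where SPF lay above GF and works against it where SPF lay below. Tmsb10 changed the other way in differentiated cells (0.354), the only region of 1195 that passed the test in that direction. It was also the only region called at 3 weeks in differentiated cells, and being picked for that difference favours this change.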

How the results depend on the processing

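The 3 mean differences kept their sign under every alternative run. In differentiated cells the call of 1 lower region became 0 on the logit scale, 0 with a replicate block among 3-week samples and 0 among regions of at least 15 CpGs, which leave Tmsb10 out, and 0 to 2 without 1 replicate. In the pooled comparison, 0 lower regions became 2 among regions of at least 15 CpGs and 0 to 2 without 1 replicate. With 3-week samples only, 1 region was less negative in differentiated cells, against 0. The counts of non-overlapping regions were 28 below and 27 above after centring, and 105 to 122 below and 11 to 21 above with 1 replicate left out, where fewer samples have to be apart. These were added after seeing the data.

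Replicate numbers mark sex at 3 weeks and nothing says that they pair samples. The deviations of same-numbered SPF and GF samples correlated at -0.144 in differentiated and 0.0413 in stem cells (autosomes -0.0777 and 0.000757). With a replicate block, the pooled comparison called 30 regions lower and 2 higher, and 0 in either direction with 3-week samples only. It called 3 lower with the replicate block and no block on identifiers, an alternative added after seeing the data. In the fit with the replicate block and the block on identifiers, which called the 30 and 2, the identifier correlation was -0.226. Its median standard error of the pooled difference was 0.0344. The main fit had 0.0207 and 0.0416. Among the named regions recomputed under the alternatives (Tmsb10 and the 20 whose groups did not overlap), 0 results reversed, 4 lost the threshold (all at Tmsb10) and 16 passed it. Unknown depth limits every value.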
